A study of Mus musculus with 27 samples.

Results

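The toll-like receptors Tlr1, Tlr2, Tlr3, Tlr4, Tlr6, Tlr7, Tlr8, Tlr9, and Tlr13 and the adaptor gene Myd88 were followed through the first days of reprogramming of mouse embryonic fibroblasts (MEFs) into induced neurons (iNs). The 10 genes were chosen by name, out of 54532 genes in the table of the series, and all 10 passed the filter on low values. Bulk RNA-seq was performed with 27 libraries, 3 of each genotype (WT, Per1-/-, and Per2-/-) on days 0, 2, and 4. MEFs had been prepared from mid-gestation embryos with the head and heart removed, and 4 embryos went into a dish without sexing. The knockout mice carried the Per1 or Per2 tm1Drw allele, a germline loss of a circadian clock gene, on a B6.129 background. Cells of every group, WT included, carried lentiviruses for the neuronal reprogramming factors and for the doxycycline-responsive activator M2rtTA, which were added on day -3. Doxycycline was given from day 0 in the neuronal medium N3, so day 0 was the state before the reprogramming genes were switched on. Until day 0 the cells were kept in medium with fetal bovine serum, and N3 contained no serum. No group without viruses or doxycycline and none kept in serum was among these libraries. Time in N3, the loss of serum, and the reprogramming factors therefore cannot be told apart.

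Toll-like receptors recognize molecules of microbes and of damaged cells. TLR1, TLR2, TLR4, and TLR6 sit on the cell surface and bind lipoproteins or lipopolysaccharide, whereas TLR3, TLR7, TLR8, TLR9, and TLR13 sit in endosomes and bind nucleic acids. Except for TLR3, these receptors signal through MYD88 to kinases and then to NF-κB and interferon regulatory factors, and macrophages, the phagocytes that develop in the embryo alongside fibroblasts, use many of them at once.

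Library depth was 15815013 to 24264097 fragments, and values are FPKM (fragments scaled by exon length and library size, so that levels of different genes can be compared). Of the 8 fibroblast markers, all 8 were measured above the filter, with a sum of 1776 to 2142 FPKM at day 0 and 3556 to 4936 at day 4 in WT, 1502 to 2703 and 3738 to 4419 in Per1-/-, and 1499 to 2464 and 3595 to 4142 in those labelled Per2-/-. Neuron markers (6 of 7 tested) summed to 26.8 to 49.1 FPKM at day 0 and 97.1 to 184 at day 4, and endothelial markers (1 of 4 tested) to at most 3.17. Their part in the results was not tested. The 15 macrophage markers were all measured too, with a sum of 123 to 1980 FPKM. None of the 15 macrophage markers was at 0 in all libraries. Markers of B cells, T cells, neutrophils, and mast cells stayed under the filter, with sums of at most 0.736, 0.309, 2.06, and 0.239 FPKM, and 1 of 5 dendritic cell markers (Zbtb46) passed it. Per1 was 4.11, 4.21, and 4.45 FPKM in Per1-/- libraries on days 0, 2, and 4 against 5.78, 4.80, and 5.16 in WT. The Per1-/- libraries lay below WT without overlap on each day, but Per1 was not called lower (day 0, log2 difference -0.50, limma adjusted p = 0.771). Per2 was 1.93, 2.83, and 2.83 FPKM in the libraries labelled Per2-/- against 0.894, 1.57, and 1.73 in WT. It was called higher on days 0 and 2 and not on day 4 (log2 difference 0.68, limma adjusted p = 0.223), so the libraries are named by their label throughout. Counts over a whole gene do not separate its deleted part from the rest and do not measure the protein, so they do not check the label. Per1-/- replicate 1 had 1 or 2 fragments of the X-inactivation RNA Xist on each day, against 2948 to 21081 in the other libraries. Tlr7, Tlr8, and Tlr13 are X-linked, and the part of this difference in their values was not tested. On day 0, Per1-/- replicate 3 was the highest library in macrophage markers and replicate 2 labelled Per2-/- was the lowest. The labels call the replicates biological without saying whether they came from separate pools of embryos, so p-values measure the spread between these libraries.

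Positions are given in GRCm38. Tlr1 (chromosome 5, 64924679 to 64933563) and Tlr6 (chromosome 5, 64952031 to 64960097) are neighbors on the minus strand, and 13.6% of the 50-base stretches of Tlr1 exons also occur in Tlr6, so reads in those stretches could have been assigned to either or to none. Tlr7 (167304929 to 167330558) and Tlr8 (167242696 to 167264329) are neighbors on the minus strand of the X chromosome, which also carries Tlr13 (106143204 to 106160493, plus strand). Tlr9 (106222598 to 106226883, plus strand) and Myd88 (119335934 to 119341411, minus strand) are on chromosome 9, Tlr2 (83836272 to 83841767, minus strand) is on chromosome 3, Tlr3 (45395665 to 45411080, minus strand) on chromosome 8, and Tlr4 (66827584 to 66930284, plus strand) on chromosome 4. Exons of Tlr3 overlap the antisense gene Gm45542 over 381 bases (7.32% of its exon bases), and those of Myd88 overlap Acaa1a over 290 bases (11.3%). The libraries did not mark strand, so fragments from these stretches cannot be told apart.

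Promoter sequences from RefSeq (GRCm38.p6) were found for 8 of the 10 genes, in 10 windows of 250 bases before a start site, and were searched on both strands for 3 motifs of myeloid and TLR-responsive genes. The core of the PU.1 site (GAGGAA; PU.1 is the factor that specifies macrophages) was present in windows of Tlr1, Tlr8, Tlr9, and Tlr13 and in 23.3% of all 32851 promoter windows. The NF-κB motif GGGANTTCC was present in the window of Tlr2 and in 1.43% of all windows, and the interferon-response core GAAANNGAA was present in windows of Tlr6, Tlr8, and Myd88 and in 7.13%. The stretches of Tlr6 and Myd88 lie inside the gene spans given above, before RefSeq starts that are downstream of the outermost start, and hold 0 exon bases. These matches describe letters and not binding. The stretches around them are shown because the genes with them differ in their course below, with the matches in capitals (forward or reverse complement), written 5′ to 3′ on the strand of the gene.
Tlr1, PU.1 core, chr5:64933564-64933658, minus strand: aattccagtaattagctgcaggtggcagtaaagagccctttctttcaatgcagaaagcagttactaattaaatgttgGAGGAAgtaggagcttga
Tlr9, PU.1 core, chr9:106222439-106222538, plus strand: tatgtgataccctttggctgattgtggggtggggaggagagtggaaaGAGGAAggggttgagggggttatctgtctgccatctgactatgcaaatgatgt
Tlr13, PU.1 core, chrX:106143145-106143203, plus strand: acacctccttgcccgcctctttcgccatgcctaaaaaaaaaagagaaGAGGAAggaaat
Tlr8, PU.1 and interferon-response cores, chrX:167264354-167264453, minus strand: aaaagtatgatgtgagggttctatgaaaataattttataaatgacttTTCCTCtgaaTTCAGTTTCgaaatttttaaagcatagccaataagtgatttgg
Tlr2, NF-κB motif, chr3:83841768-83841827, minus strand: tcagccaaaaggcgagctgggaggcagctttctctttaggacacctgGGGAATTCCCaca
Tlr6, interferon-response core, chr5:64959229-64959328, minus strand: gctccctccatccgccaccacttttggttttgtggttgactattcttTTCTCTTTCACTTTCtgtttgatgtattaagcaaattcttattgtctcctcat
Myd88, interferon-response core, chr9:119340042-119340118, minus strand: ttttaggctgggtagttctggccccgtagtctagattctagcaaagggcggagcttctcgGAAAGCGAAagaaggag
The 250-base windows of Tlr9, Tlr8, and Tlr1 (the window with the PU.1 core) held 0, 1, and 1 CpG, against 9 in that of Myd88 and 11 in that of Tlr2. The window of Tlr13, also with the PU.1 core, held 5. The others held 4 and 6 (Tlr6), 6 (Tlr3), and 8 (the other window of Tlr1). The median of all windows was 6, and 49.6% of them held 5 or fewer.

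Myd88 was the most abundant of the 10 genes, with a mean of 9.25 FPKM over the 27 libraries. Tlr13 (4.52 FPKM), Tlr2 (4.43), Tlr7 (3.66), and Tlr4 (2.94) followed, and Tlr8 (1.30), Tlr9 (1.22), Tlr3 (1.01), Tlr1 (0.833), and Tlr6 (0.589) were low. In Per1-/- libraries of day 4, Tlr13 (11.2 ± 1.29 FPKM), Tlr7 (10.6 ± 2.55), Myd88 (10.6 ± 2.13), and Tlr2 (9.92 ± 2.10) overlapped. The other mouse receptors listed were below the filter, namely the flagellin receptor Tlr5 (0.384 FPKM) and Tlr11 and Tlr12 with 2 and 13 fragments over all libraries. In WT cells on day 0, the receptor with the highest mean was the lipopolysaccharide receptor Tlr4 (2.93 ± 0.552 FPKM, SD, n = 3, as in all values below). Tlr4 lay above Tlr2 (1.84 ± 0.145) and Tlr7 (1.42 ± 0.689) without overlap, but overlapped with Tlr13 (1.69 ± 0.746). Tlr2, Tlr13, and Tlr7 overlapped with one another. On day 4 in WT cells, Tlr2 (6.51 ± 1.30), Tlr13 (5.84 ± 1.03), and Tlr7 (4.79 ± 1.92) were the highest and overlapped, and Tlr4 (3.23 ± 0.122) lay below Tlr2 and Tlr13. Tlr9 was near the detection limit on day 0, with 2 to 13 fragments per WT library.

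**Figure D1:**
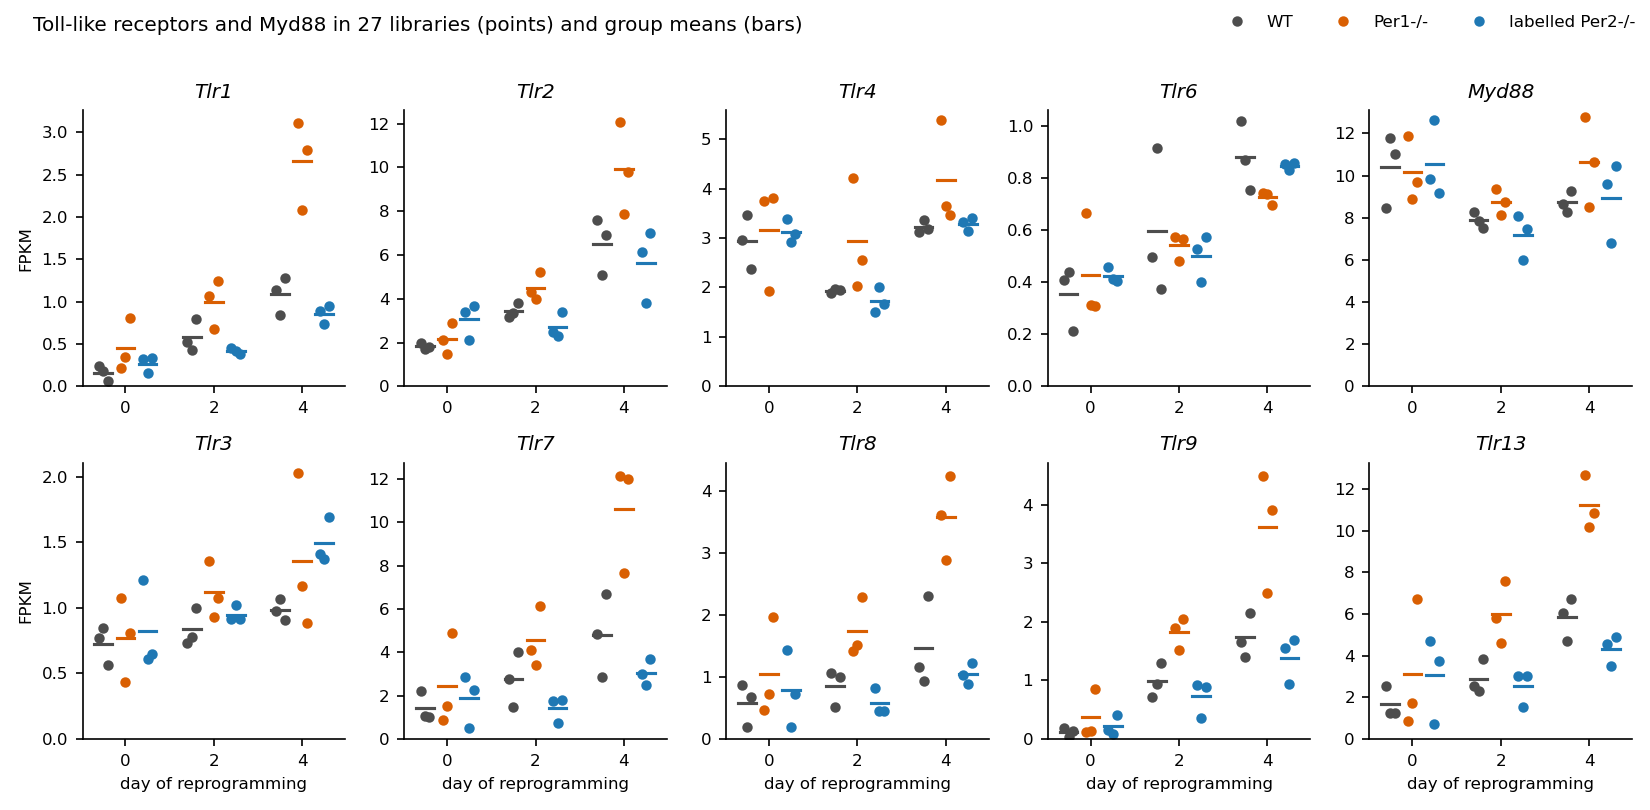
FPKM of each of the 10 genes (one panel each, y axis on its own linear scale from 0) in the 27 libraries, grouped on the x axis by day and genotype; points are libraries and short lines are group means (n = 3). Tlr1, Tlr2, and Tlr9 were higher on day 4 than on day 0 in every genotype. For 7 of the 10 genes the 3 Per1-/- libraries of day 4 lay above the other 6, as did 4.92% of all tested genes. With FPKM rescaled to a common sum this held for 2 (Tlr1 and Tlr13).

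The first question was how the receptors changed as reprogramming went on. From day 0 to day 4, 7 of the 10 genes rose in WT cells (43.8% of the 14932 tested genes were called in either direction), 8 in Per1-/- cells (43%), and 5 in cells labelled Per2-/- (40.3%), and none fell. Of all 14932 tested genes, 3414, 3378, and 3218 rose in these comparisons. A gene counted as called when limma gave an adjusted p no higher than 0.05 and the log2 fold change was no smaller than 0.58 in either direction, and log2 fold changes are of FPKM + 0.1 and so understate the change of low genes. The median log2 fold change of the 10 genes was 1.49 in WT, 2.03 in Per1-/-, and 0.85 in libraries labelled Per2-/-, against -0.02, 0.00, and 0.00 over all tested genes. Tlr1, Tlr2, Tlr6, and Tlr9 rose in all 3 genotypes, Tlr7, Tlr8, and Tlr13 in WT and Per1-/- cells, and Tlr3 in Per1-/- cells and those labelled Per2-/-, whereas Tlr4 and Myd88 were not called in any. Already on day 2, 3 genes had risen in WT (40.5% of all tested genes were called in either direction), 4 in Per1-/- cells (39.6%), and 1 in those labelled Per2-/- (35.5%), where Tlr4 had fallen. Rises to day 2 numbered 3101, 3101, and 2792 over all tested genes. Between days 2 and 4, 1 gene rose in WT (3.21% called in either direction), 2 in Per1-/- (2.44%), and 2 in libraries labelled Per2-/- (4.06%). Over all tested genes, 242, 206, and 346 rose between these days.

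**Figure D2:**
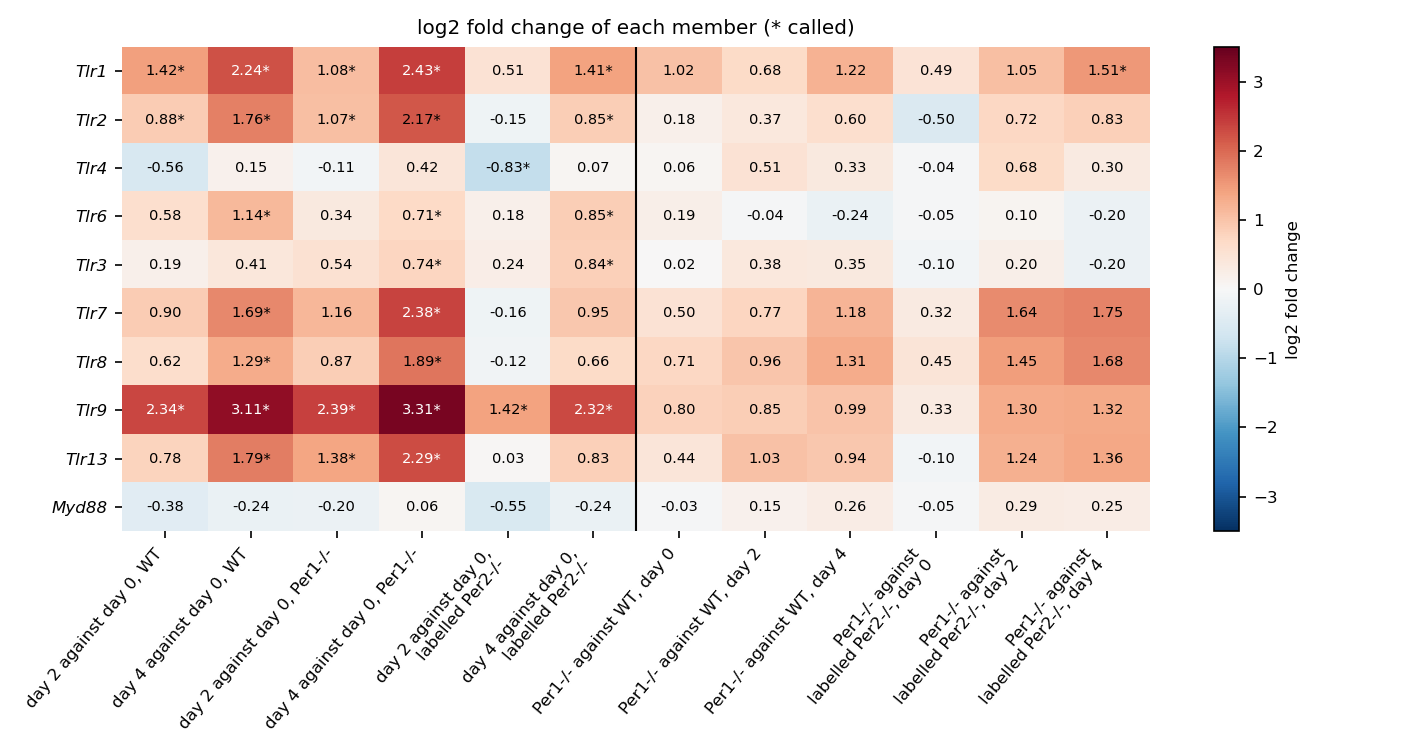
Log2 fold changes of the 10 genes (rows) in the comparisons of days and of genotypes (columns), with color for the log2 fold change of FPKM + 0.1 and an asterisk for genes called by limma. Calls in 1 or more of the day comparisons cover 9 of 10 genes. Of all tested genes, 35.5% to 43.8% were called in each comparison with day 0. From day 2 to day 4, 2.44% to 4.06% were called. Per1-/- against the libraries labelled Per2-/- on day 4 holds 1 call (Tlr1), where 0.556% of all tested genes were called. Per1-/- against WT holds none, where 0.0067% to 0.0268% were called.

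Among the surface receptors, Tlr2, which pairs with TLR1 or TLR6 to bind bacterial lipoproteins, rose to day 4 in all 3 genotypes. In WT libraries Tlr2 was 1.99, 1.70, and 1.82 FPKM at day 0, 3.18, 3.36, and 3.83 at day 2, and 7.58, 5.07, and 6.89 at day 4. The 3 days did not overlap. Tlr2 rose by 1.76 (SE 0.25, limma adjusted p = 3.37e-06) on the log2 scale from day 0 to day 4 in WT, and by 0.88 (adjusted p = 0.0432) from day 2 to day 4. In Per1-/- libraries it went from 2.13, 1.49, and 2.88 FPKM to 4.30, 4.01, and 5.24 and then 12.1, 7.89, and 9.80. These days were also separate, and the log2 fold change to day 4 was 2.17 (SE 0.25, limma adjusted p = 2.17e-07). In the libraries labelled Per2-/- it was 3.39, 2.13, and 3.68 FPKM at day 0, 2.46, 2.31, and 3.40 at day 2, and 6.13, 3.81, and 6.99 at day 4, so that days 0 and 2 overlapped and the rise of 0.85 (SE 0.25, limma adjusted p = 0.00546) fell between days 2 and 4 (1.00, adjusted p = 0.021). The call of Tlr2 to day 4 held in all 27 fits that left out 1 library. Its calls from day 2 to day 4 were lost more often. In WT this was so without any of the 6 libraries compared, WT replicate 1 or 3 of day 0, Per1-/- replicate 2 of day 2, or Per1-/- replicate 3 of day 4, in Per1-/- cells without replicate 2 of day 2 or replicate 1 of day 4, and in libraries labelled Per2-/- without replicate 1 or 2 of day 2 or replicate 1 or 3 of day 4 (adjusted p just above 0.05 to 0.171, 0.0805 to 0.0861, and 0.0707 to 0.123).

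Tlr1, a partner of TLR2 for triacylated lipoproteins, started from a lower level. It was 0.236, 0.188, and 0.0596 FPKM in WT on day 0 (4 to 15 fragments per library), 0.519, 0.432, and 0.80 at day 2, and 1.14, 0.846, and 1.28 at day 4, with each day above the one before. The log2 fold change was 1.42 (SE 0.35, limma adjusted p = 0.00148) to day 2 and 2.24 (SE 0.35, limma adjusted p = 1.2e-05) to day 4. Per1-/- libraries had 0.216, 0.349, and 0.810 FPKM at day 0, 1.06, 0.676, and 1.25 at day 2, and 3.11, 2.09, and 2.79 at day 4. Days 0 and 2 overlapped because replicate 3 was high on day 0, but day 4 lay above all others, with a rise of 2.43 (adjusted p = 4.5e-06) from day 0 and 1.35 (adjusted p = 0.033) from day 2. The rise from day 0 to day 2 in Per1-/- cells (1.08, adjusted p = 0.0116) was lost without replicate 1 of day 0 or replicate 3 of day 2 (adjusted p = 0.0553 and 0.0835), and that from day 2 to day 4 was lost without any 1 of the 6 Per1-/- libraries it compared (adjusted p = 0.0519 to 0.179). Libraries labelled Per2-/- had 0.322, 0.159, and 0.330 FPKM at day 0, 0.453, 0.414, and 0.381 at day 2, and 0.885, 0.741, and 0.955 at day 4, and Tlr1 rose by 1.41 (SE 0.35, limma adjusted p = 0.00163) to day 4.

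Tlr6, the partner of TLR2 for diacylated lipoproteins, rose less and reached 0.695 to 1.02 FPKM at day 4. It was 0.409, 0.441, and 0.214 FPKM in WT on day 0 and 1.02, 0.868, and 0.753 at day 4, 0.666, 0.313, and 0.309 and 0.743, 0.740, and 0.695 in Per1-/- cells, and 0.457, 0.413, and 0.405 and 0.855, 0.832, and 0.857 in those labelled Per2-/-. The days did not overlap in any genotype. Log2 fold changes were 1.14 (adjusted p = 0.00131), 0.71 (0.0326), and 0.85 (0.012) by limma, and the call in Per1-/- cells was lost without replicate 2 or 3 of day 0 or any replicate of day 4 (adjusted p = 0.0555 to 0.131).

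Tlr4, the lipopolysaccharide receptor, had its lowest values on day 2 in WT and in the libraries labelled Per2-/-. In WT it was 2.96, 3.47, and 2.37 FPKM at day 0, 1.88, 1.97, and 1.95 at day 2, and 3.13, 3.36, and 3.18 at day 4, and the day 2 libraries were below both other days. The log2 difference of -0.56 (adjusted p = 0.046) was under the fold threshold. The rise of Tlr4 from day 2 to day 4 in WT, 0.71 (adjusted p = 0.0873), was called with the replicate number as a block (adjusted p = 0.0142), so that 2 of the 10 genes were called with the block and 1 without it. The libraries labelled Per2-/- had 3.38, 2.92, and 3.07 FPKM at day 0, 1.5, 2.00, and 1.67 at day 2, and 3.33, 3.14, and 3.41 at day 4. Here Tlr4 fell by 0.83 on the log2 scale to day 2 (SE 0.24, limma adjusted p = 0.00519) and rose by 0.90 (SE 0.24, limma adjusted p = 0.027) to day 4. The fall was -0.51 and no longer called with FPKM rescaled to a common sum, and the rise was lost without replicate 1 or 3 of day 2 or of day 4 (adjusted p = 0.0741 to 0.0998). Per1-/- libraries had 3.76, 1.93, and 3.80 FPKM at day 0, 4.22, 2.03, and 2.55 at day 2, and 5.39, 3.65, and 3.47 at day 4, which overlapped on all days.

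Among the endosomal receptors, Tlr9, which senses unmethylated CpG DNA, showed the largest log2 rise of the 10 genes in each genotype. In WT it was 0.196, 0.0278, and 0.143 FPKM at day 0 (2 to 13 fragments), 0.722, 0.932, and 1.30 at day 2, and 1.66, 1.41, and 2.15 at day 4. In Per1-/- cells it was 0.119, 0.131, and 0.857 FPKM (7 to 44 fragments), 1.89, 1.52, and 2.05, and 4.49, 2.48, and 3.90, and in those labelled Per2-/- 0.147, 0.0915, and 0.417 FPKM (6 to 25 fragments), 0.929, 0.354, and 0.895, and 1.55, 0.932, and 1.69. Day 4 was above day 0 without overlap in every genotype, and days 0 and 2 overlapped only in libraries labelled Per2-/-. The log2 fold change to day 4 was 3.11 (SE 0.49, limma adjusted p = 1.27e-05) in WT, 3.31 (SE 0.49, limma adjusted p = 6.25e-06) in Per1-/- cells, and 2.32 (SE 0.49, limma adjusted p = 0.00036) in those labelled Per2-/-, and most of it was present on day 2 (2.34, 2.39, and 1.42). The day 2 call in libraries labelled Per2-/- was lost without replicate 1 or 2 of day 0 or replicate 1 or 3 of day 2 (adjusted p = 0.0579 to 0.0888), whereas the day 4 calls held in all 27 fits.

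The X-linked RNA receptors Tlr7, Tlr8, and Tlr13 (TLR7 binds single-stranded RNA, TLR8 is its close relative, and TLR13 binds bacterial ribosomal RNA) moved alike and varied more between replicates. Tlr13 was 2.55, 1.27, and 1.25 FPKM at day 0, 2.53, 2.30, and 3.85 at day 2, and 6.07, 4.72, and 6.73 at day 4 in WT. In Per1-/- cells it was 0.865, 1.75, and 6.72 FPKM, 5.79, 4.62, and 7.58, and 12.7, 10.2, and 10.9, and in those labelled Per2-/- 4.71, 0.715, and 3.74 FPKM, 3.02, 1.54, and 3.05, and 4.58, 3.51, and 4.90. The spread was widest on day 0, where replicate 3 of Per1-/- and replicates 1 and 3 labelled Per2-/- were the high ones. Day 4 lay above day 0 in WT by 1.79 (SE 0.57, limma adjusted p = 0.0096) on the log2 scale and in Per1-/- by 2.29 (SE 0.57, limma adjusted p = 0.00152), but overlapped with it in libraries labelled Per2-/- (0.83, adjusted p = 0.216). The rise of Tlr13 to day 2 in Per1-/- cells (1.38, adjusted p = 0.0428) was lost without replicate 1 or 2 of day 0 or replicate 1 or 3 of day 2 (adjusted p = 0.0809 to 0.266).

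Tlr7 was 2.21, 1.04, and 1.00 FPKM at day 0 and 4.85, 2.84, and 6.67 at day 4 in WT, 0.899, 1.54, and 4.91 and 12.1, 7.65, and 12.0 in Per1-/- cells, and 2.85, 0.507, and 2.28 and 3.01, 2.49, and 3.67 in those labelled Per2-/-. Tlr8 was 0.865, 0.189, and 0.681 FPKM and 1.16, 0.940, and 2.31 in WT, 0.461, 0.724, and 1.96 and 3.60, 2.89, and 4.25 in Per1-/- cells, and 1.44, 0.192, and 0.729 and 1.03, 0.891, and 1.22 in those labelled Per2-/-. For both genes days 0 and 4 were separate in WT and Per1-/- cells and overlapped in the libraries labelled Per2-/-. Tlr7 rose by 1.69 on the log2 scale in WT (adjusted p = 0.0133) and 2.38 in Per1-/- cells (0.0011), and Tlr8 by 1.29 (0.0419) and 1.89 (0.0045). In WT the call of Tlr7 was lost without replicate 3 of day 0 or of day 4 (adjusted p = 0.0506 and 0.0625), and that of Tlr8 without replicate 2 of day 0 or replicate 1 or 3 of day 4 (adjusted p = 0.0566 to 0.246). From day 0 to day 2 in Per1-/- cells, the Tlr7 difference of 1.16 (adjusted p = 0.0832) was called with the replicate number as a block (adjusted p = 0.020). Per1-/- replicate 1, the culture with almost no Xist, had 12.1 FPKM of Tlr7 at day 4, close to the level of replicate 3. On day 0 it was the lowest Per1-/- library for Tlr7 (0.899 FPKM), Tlr8 (0.461), and Tlr13 (0.865). The part of Xist in these values was not tested.

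Tlr3, the double-stranded RNA receptor that signals through TRIF in place of MYD88, was called in the Per1-/- and labelled Per2-/- libraries, with smaller changes than Tlr9. It was 0.767, 0.845, and 0.565 FPKM at day 0 and 0.977, 1.07, and 0.907 at day 4 in WT, 1.07, 0.436, and 0.806 and 2.03, 1.16, and 0.885 in Per1-/- cells, and 1.21, 0.611, and 0.647 and 1.41, 1.37, and 1.70 in those labelled Per2-/-. It rose by 0.84 (SE 0.29, limma adjusted p = 0.0156) on the log2 scale in the libraries labelled Per2-/-, without overlap, and by 0.74 (SE 0.29, limma adjusted p = 0.03) in Per1-/- cells, where the days overlapped. Both calls depended on single libraries, with adjusted p = 0.214 and 0.215 in Per1-/- cells without replicate 2 of day 0 or replicate 1 of day 4, and 0.0567 to 0.0741 without replicate 2 or 3 of day 0 or replicate 3 of day 4 labelled Per2-/-.

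Myd88, the adaptor that the other receptors share, did not follow them. It was 8.47, 11.8, and 11 FPKM at day 0, 8.29, 7.86, and 7.51 at day 2, and 8.64, 8.27, and 9.27 at day 4 in WT. Per1-/- cells had 11.9, 8.89, and 9.70 FPKM, 9.37, 8.14, and 8.75, and 12.8, 8.49, and 10.7, and those labelled Per2-/- 9.83, 12.6, and 9.18 FPKM, 8.10, 5.97, and 7.45, and 9.60, 6.79, and 10.5. Day 2 was below day 0 without overlap in WT (-0.38 on the log2 scale, adjusted p = 0.0576) and in libraries labelled Per2-/- (-0.55, adjusted p = 0.00971), the latter within the p threshold and short of the fold threshold. From day 0 to day 4 its log2 fold changes were -0.24, 0.06, and -0.24 (SE 0.17), which a rescaling to the same FPKM sum turned into 0.16, 0.32, and 0.00.

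The receptors shifted in their proportions. The sum of the 9 receptors was 9.82 ± 2.12 FPKM at day 0, 14.9 ± 2.86 at day 2, and 26.5 ± 4.96 at day 4 in WT. In Per1-/- cells it was 14.0 ± 7.91, 24.2 ± 4.78, and 47.9 ± 8.79 FPKM, and in those labelled Per2-/- 13.7 ± 5.28, 11.6 ± 2.06, and 22.0 ± 3.89. On day 4 the Per1-/- libraries (38.7 to 56.2 FPKM) were the highest in the deposited FPKM. The lowest of them, replicate 2, had 38.7 FPKM where all genes summed to 343225, against 30.9 and 268777 in WT replicate 3. Relative to these sums Per1-/- and WT overlapped. Tlr4 made up 30.5 ± 6.86% of the sum on day 0 and 12.5 ± 2.99% on day 4 in WT, 25.2 ± 10.5% and 8.71 ± 1.37% in Per1-/- cells, and 25.6 ± 10.6% and 15.3 ± 2.22% in those labelled Per2-/-. Tlr1 to Tlr6, the genes of the partners of TLR2, went from a ratio of 0.427 ± 0.149 to 1.26 ± 0.383 in WT, from 1.35 ± 1.17 to 3.67 ± 0.743 in Per1-/- cells, and from 0.635 ± 0.224 to 1.01 ± 0.113 in those labelled Per2-/-. The 3 Per1-/- ratios of day 4 (2.82 to 4.18) were above those of the other genotypes on that day. A ratio says that the transcripts changed unequally and not that they were in the same cells, and no test was run on sums or ratios, which are built from the members.

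**Figure D3:**
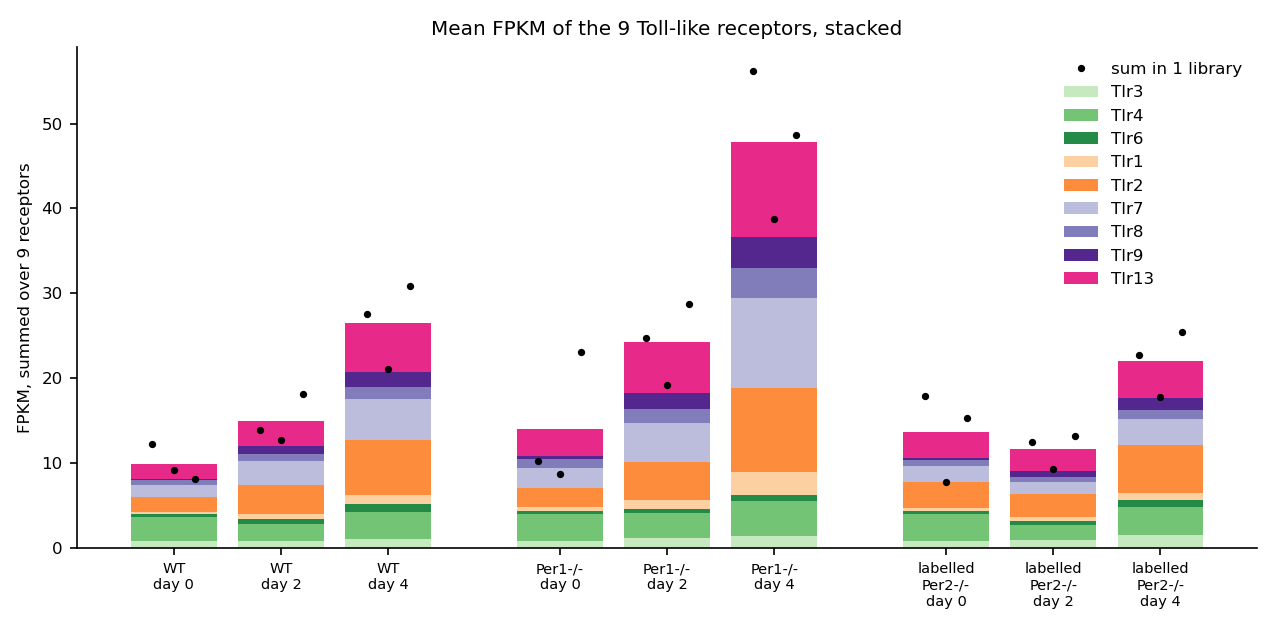
Sum of the FPKM of the 9 receptors, stacked by receptor, as the mean of 3 libraries for each genotype and day (bars from 0), with a point for the sum in each library. The bars of day 4 are the tallest in each genotype, with means of 26.5 FPKM in WT, 47.9 in Per1-/-, and 22.0 in the libraries labelled Per2-/-.

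The next question was whether the receptors differed between genotypes on the same day. No member was called between Per1-/- and WT on day 0 (0.0134% of all tested genes were called), day 2 (0.0067%), or day 4 (0.0268%), or between the libraries labelled Per2-/- and WT (0.0067%, 0.0268%, and 0.0067%). Unadjusted p of limma was under 0.05 for 1, 1, and 3 of the 10 genes in the former and for 1, 0, and 0 in the latter, beside 719, 410, and 924 and 588, 429, and 511 of all 14932 tested genes, and limma with voom weights also called 0. Between Per1-/- and the libraries labelled Per2-/-, 0 members were called on days 0 (0.0201%) and 2 (0.0737%) and 1, Tlr1, on day 4 (0.556%), and unadjusted p was under 0.05 for 0, 7, and 6 of the 10 beside 892, 1228, and 1974 of all genes. The 3 kinds of comparison share libraries, so they are not independent of one another. The median log2 difference of the 10 genes on day 4 was 0.77 against WT and 1.07 against the libraries labelled Per2-/-.

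Tlr1 at day 4 was 2.66 ± 0.523 FPKM in Per1-/- libraries, 1.09 ± 0.220 in WT, and 0.860 ± 0.109 in those labelled Per2-/-. The lowest Per1-/- library was above all 6 others. The log2 difference was 1.51 (SE 0.35, limma adjusted p = 0.0437) from the libraries labelled Per2-/- and 1.22 (SE 0.35, limma adjusted p = 0.474) from WT. The call rested near the threshold and was lost in 15 of the 27 fits that left out 1 library, with adjusted p = 0.0511 to 0.214. These were the fits without any of the 6 libraries compared, any library of day 2 labelled Per2-/-, replicate 3 of day 0 labelled Per2-/-, WT replicates 1 and 2 of day 2 and 1 and 3 of day 4, and Per1-/- replicate 1 of day 2. With the mean of the macrophage markers as a covariate the difference was 0.78 (adjusted p = 0.236), and with voom weights on fragments Tlr2, Tlr7, Tlr8, and Tlr9 were called along with Tlr1.

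The other members with separate Per1-/- libraries on day 4 were not called. Tlr7 was 10.6 ± 2.55 FPKM in Per1-/-, 4.79 ± 1.92 in WT, and 3.06 ± 0.593 in libraries labelled Per2-/-, with log2 differences of 1.18 (SE 0.57, adjusted p = 0.807) and 1.75 (adjusted p = 0.165). Tlr8 was 3.58 ± 0.681, 1.47 ± 0.736, and 1.05 ± 0.165 FPKM (1.31 and 1.68, adjusted p = 0.72 and 0.157). Tlr13 was 11.2 ± 1.29, 5.84 ± 1.03, and 4.33 ± 0.727 FPKM (0.94 and 1.36, adjusted p = 0.913 and 0.291). All 3 are X-linked, and Per1-/- replicate 1, with almost no Xist, and the other replicates were all above the other genotypes. Tlr9 was 3.62 ± 1.03, 1.74 ± 0.379, and 1.39 ± 0.402 FPKM (0.99 and 1.32), and Tlr2 was 9.92 ± 2.10, 6.51 ± 1.30, and 5.64 ± 1.64 FPKM (0.60 and 0.83). Tlr4 and Myd88 differed by 0.33 and 0.26 from WT on the log2 scale. Tlr6 went the other way, with 0.743, 0.740, and 0.695 FPKM in Per1-/- libraries, all just below the 6 others (-0.24 and -0.20).

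Counted over the 10 genes, the 3 Per1-/- libraries lay above the other 6 of the day for 0 genes on day 0 (0.643% of all tested genes did), 5 at day 2 (3.07%; Tlr2, Tlr4, Tlr8, Tlr9, and Tlr13), and 7 at day 4 (4.92%; Tlr1, Tlr2, Tlr4, Tlr7, Tlr8, Tlr9, and Tlr13). They lay below for 0 (0.83%), 0 (1.82%), and 1 (2.67%; Tlr6). The counts above depended on the scaling of the libraries. Rescaled to a common sum they were 3 at day 2 and 2 at day 4 (Tlr1 and Tlr13), and rescaled without Gm23935, which held 3.82% to 25.0% of the summed FPKM of a library, they were 4 and 6, whereas Tlr6 was below in each case. The 15 macrophage markers moved the same way, with a sum of 1098 to 1980 FPKM in Per1-/- libraries of day 4, 538 to 989 in WT, and 410 to 739 in those labelled Per2-/-, and none of the 15 was called between genotypes on day 4. In bulk samples more cells of a type and more RNA per cell cannot be told apart.

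Whether the change over days itself differed was asked with interaction contrasts. None of the 10 genes was called in the 4 contrasts, and 0% of all tested genes were called in each, by limma or with voom weights. Unadjusted p was under 0.05 for 0 of 10 genes against WT on both days and, against the libraries labelled Per2-/-, for 2 genes on day 2 (Tlr2 and Tlr4) and 1 at day 4, beside 306, 500, 670, and 895 of all tested genes. The latter was Tlr2, whose rise from day 0 to day 4 was larger in Per1-/- cells by 1.32 (SE 0.35, adjusted p = 0.444) than in those labelled Per2-/-, and by 0.42 (SE 0.35) than in WT. With the culture as a replicate block, the first of these was called (SE 0.22, limma adjusted p = 0.0445), as 1 of 7 genes in all. That block pairs days 0 and 4 by replicate number. The r of deviations from group means for these pairs was 0.0617 to 0.146 in Per1-/- and 0.0553 to 0.142 in libraries labelled Per2-/-. Not every r was over 0.1, so the call rests on a pairing that these r did not show. Xist kept its order by replicate number on these days. In libraries labelled Per2-/- it was 13.2, 20.9, and 17.9 FPKM on day 0 and 18.4, 56.0, and 33.7 on day 4. Per1-/- replicate 1 had 1 Xist fragment on each of these days. For the X-linked Tlr7, Tlr8, and Tlr13 the differences from the libraries labelled Per2-/- were 1.43, 1.23, and 1.46, with SEs of 0.81, 0.76, and 0.81. So a gene that was called in WT and Per1-/- cells and not in those labelled Per2-/- was not shown to differ between them.

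The 10 genes differed in how closely they followed macrophage transcripts. Across the 27 libraries, the log2 value of Tlr13 had a Pearson's r of 0.975 with the mean log2 value of the 15 macrophage markers, Tlr7 0.959, Tlr1 0.948, Tlr9 0.930, Tlr8 0.902, and Tlr2 0.899, whereas Tlr3 had 0.58, Tlr6 0.547, Tlr4 0.377, and Myd88 -0.100. These values describe libraries that share days, genotypes, and cultures. For deviations from the group means, r remained 0.983 for Tlr13 and 0.941 for Tlr7, was 0.830, 0.826, 0.792, and 0.692 for Tlr1, Tlr8, Tlr9, and Tlr2, and was 0.217, 0.192, -0.185, and -0.227 for Tlr3, Tlr4, Tlr6, and Myd88. The marker mean rose by 2.09 on the log2 scale in WT, 2.40 in Per1-/- cells, and 1.37 in those labelled Per2-/- from day 0 to day 4, and 12, 15, and 9 of the 15 markers were called up. Their part in the changes of the receptors was not tested, other than by a fit with the marker mean as a covariate. In that fit the log2 changes to day 4 in WT, Per1-/-, and labelled Per2-/- libraries were 1.43, 1.39, and 1.22 for Tlr9, 1.01, 1.32, and 0.36 for Tlr2, 1.04, 1.06, and 0.63 for Tlr1, and 1.34, 0.93, and 0.98 for Tlr6. For Tlr7 they were -0.69, -0.35, and -0.61 and for Tlr13 -0.71, -0.57, and -0.80, below 0 where the fit without the covariate was above it.

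**Figure D4:**
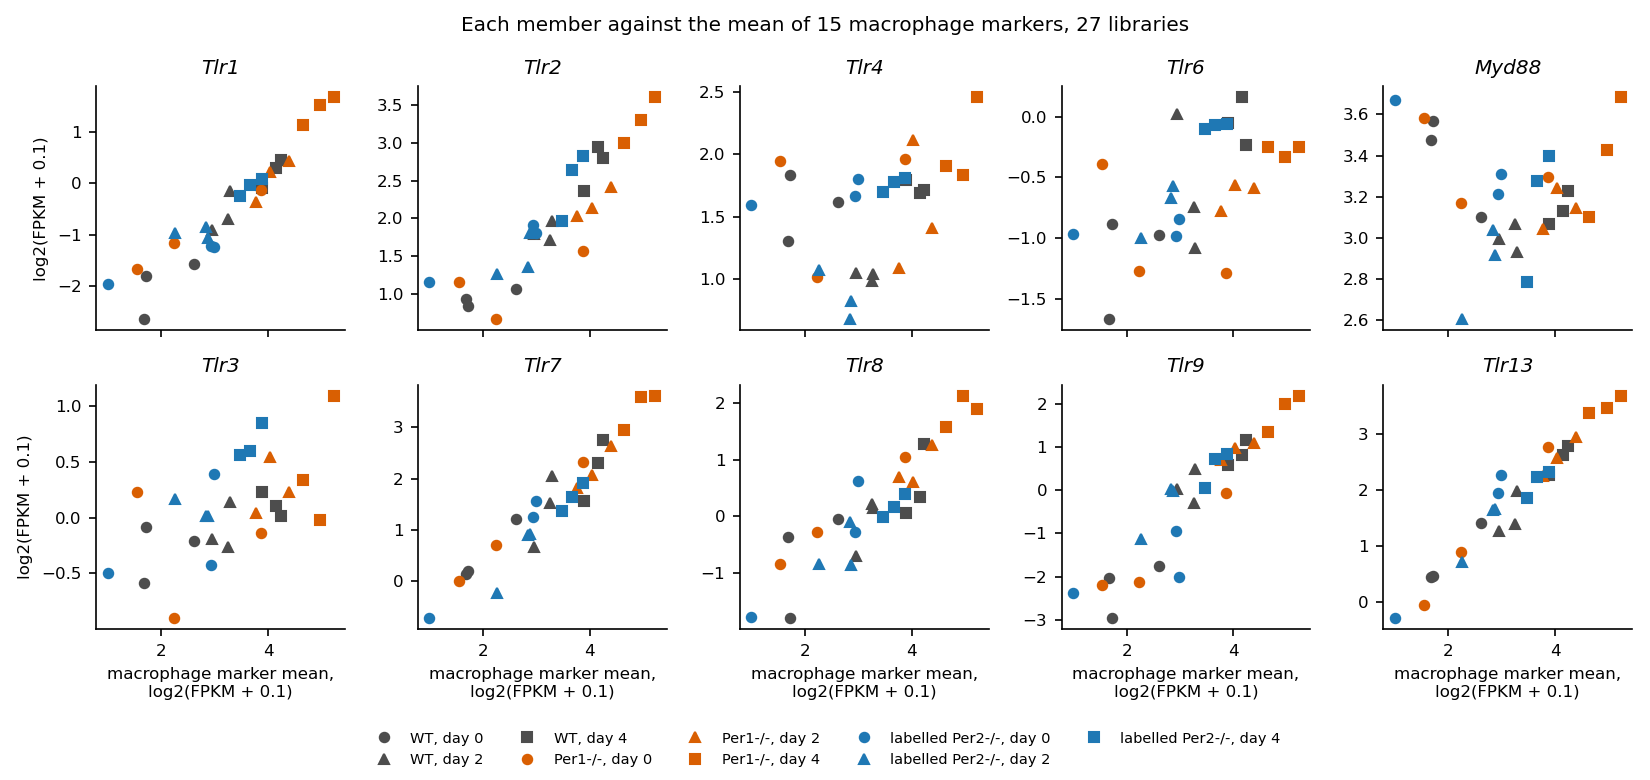
Log2(FPKM + 0.1) of each of the 10 genes (y axis, one panel each) against the mean log2 value of the 15 macrophage markers (x axis) in the 27 libraries, with color for genotype and shape for day. Tlr13 and Tlr7 lie close to a line (r of 0.975 and 0.959), and Myd88 and Tlr4 do not (r of -0.100 and 0.377).

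The genes with the most similar pattern over the 27 libraries, by Pearson's r of log2(FPKM + 0.1) among all 14932 tested genes, were as follows. For Tlr7 they were Mpeg1 (0.986), C1qc (0.979), and C1qb (0.977), for Tlr13 Csf1r (0.980), C1qc (0.979), and Inpp5d (0.978), and for Tlr8 Mpeg1 (0.948), Tlr7 (0.943), and Ncf1 (0.942). The C1q genes encode complement subunits made by macrophages, Csf1r encodes the receptor for their growth factor CSF1, and Mpeg1 encodes a pore-forming protein of phagocytes. Tlr1 was closest to Mrc1 (0.964), Otulinl (0.964), and Hpgds (0.957), Tlr2 to Sirpa (0.961), Dab2 (0.954), and Nfam1 (0.949), and Tlr9 to Cd33 (0.975), Ms4a6b (0.968), and Pik3cg (0.965). Mrc1 encodes the mannose receptor, Sirpa the receptor for the CD47 signal, and Cd33 an inhibitory lectin of myeloid cells. Tlr4 was closest to Cd248 (0.873), Mfap5 (0.850), and Pparg (0.835), of which Cd248 and Mfap5 are genes of stromal cells and their matrix. Tlr3 was closest to Ifit3b (0.836), Ezh1 (0.820), and Gbp3 (0.817), of which Ifit3b and Gbp3 are interferon-induced, Tlr6 to Igfbp4 (0.904), Slc1a3 (0.896), and Gm14066 (0.891), and Myd88 to Plxna1 (0.837), Colec12 (0.816), and Edem1 (0.809).

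The other genes of the pathway were counted from 86 genes in 10 lists, of which 70 were tested. From day 0 to day 4, 16 of the 70 rose and 12 fell in WT, 17 rose and 10 fell in Per1-/- cells, and 11 rose and 10 fell in those labelled Per2-/-, beside 43.8%, 43%, and 40.3% of all tested genes called in the 3 comparisons. On day 2, 7 had risen and 16 had fallen in WT, 10 and 11 in Per1-/- cells, and 5 and 14 in those labelled Per2-/-. Of all tested genes, 40.5%, 39.6%, and 35.5% were called in these comparisons. Between Per1-/- and the libraries labelled Per2-/- on day 4, 1 of the 70 was called, Lgmn, an endosomal protease (132 against 71.6 FPKM, log2 difference 0.88, limma adjusted p = 0.0488). Log2 fold changes below are from day 0 to day 4 in WT, Per1-/-, and labelled Per2-/- libraries, in that order.

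Of 6 tested genes for co-receptors and ligand binding, 3 rose and 1 fell in WT, 3 rose in Per1-/- cells, and 1 rose in those labelled Per2-/-. Lbp, which carries lipopolysaccharide to CD14, rose in all (2.10, 1.99, and 1.91). Cd36, a scavenger receptor that assists TLR2, and Cd180, a TLR relative, rose in WT (1.74 and 1.74) and Per1-/- cells (1.72 and 1.91). Ly96, which encodes MD-2, the TLR4 partner, fell in WT (-0.67). Of 5 genes for chaperones and trafficking, Unc93b1, which carries endosomal receptors out of the endoplasmic reticulum, rose (1.60, 2.05, and 1.05) and Hsp90b1, which folds most TLRs, fell (-1.13, -1.28, and -1.09) in all 3 genotypes. Of 5 endosomal proteases, which trim TLR9 and its relatives, Ctss rose in WT (1.47) and Per1-/- cells (1.68), Ctsl fell in all (-1.20, -1.07, and -1.33), and Lgmn rose in Per1-/- cells (0.92).

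Of 4 adaptors other than Myd88, 2 rose and 1 fell in each genotype. Sarm1, an NAD-cleaving adaptor best known in neurons, rose (3.33, 2.93, and 2.61), as did Pik3ap1, which links TLRs to PI3 kinase (2.56, 2.77, and 1.99), and Tirap, which brings MYD88 to TLR2 and TLR4, fell (-1.15, -0.95, and -1.27). The 15 kinases and ubiquitin ligases downstream of MYD88 had 1, 2, and 2 called. Irak2 fell in all (-2.28, -2.13, and -1.84), and Tab1 rose in Per1-/- cells (0.73) and in those labelled Per2-/- (0.66). Of 9 transcription factors, 3 rose and 1 fell in WT, 3 rose in Per1-/- cells, and 2 rose and 1 fell in those labelled Per2-/-. Irf7, which drives interferon genes after TLR7 and TLR9 signals, rose in all (2.32, 2.81, and 2.82), as did Irf5 (1.41, 1.56, and 0.75). Irf8, a factor of myeloid development, rose in WT (1.52) and Per1-/- cells (1.86), and Nfkb2 fell in WT (-0.72) and libraries labelled Per2-/- (-0.61).

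Of 11 inhibitors, 3 rose and 2 fell in WT and in Per1-/- cells, and 2 rose and 1 fell in those labelled Per2-/-. Trim30a, an interferon-induced inhibitor of TRAF6 signals, rose (2.86, 2.48, and 2.52), and Nfkbie, an NF-κB inhibitor, rose too (1.12, 1.61, and 1.11), while Dusp1, a phosphatase that switches off MAP kinases, fell (-2.24, -2.10, and -2.12). Of 7 tested genes of the IL-1 family, whose receptors also signal through MYD88, 2 rose and 2 fell in WT and 1 rose and 2 fell in the other genotypes. Il1rl1, the receptor for IL-33, fell from 110 ± 18.9 FPKM to 2.31 ± 1.19 in WT (-5.65, -5.50, and -5.16), Il18rap fell (-3.82, -3.39, and -4.14), and Il33 rose (1.67, 2.28, and 1.04). Of 8 tested target genes, 1 rose and 2 fell in each genotype. Ptgs2, which encodes COX-2, fell from 119 ± 24.4 FPKM to 0.616 ± 0.118 in WT, from 111 ± 49.4 to 0.537 ± 0.168 in Per1-/- cells, and from 99.1 ± 36.5 to 0.869 ± 0.0596 in those labelled Per2-/- (-7.37, -7.36, and -6.61). The monocyte chemokine Ccl2 fell (-3.18, -3.25, and -2.90), and the adhesion molecule Icam1 rose (1.18, 1.19, and 1.21). The cytokines Il1a, Il1b, Il6, Il10, Il12b, and Ifnb1 and the genes Ccl5, Cxcl2, Nos2, Ly86, Ticam2, Sigirr, and Il18r1 were below the filter.

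**Figure D5:**
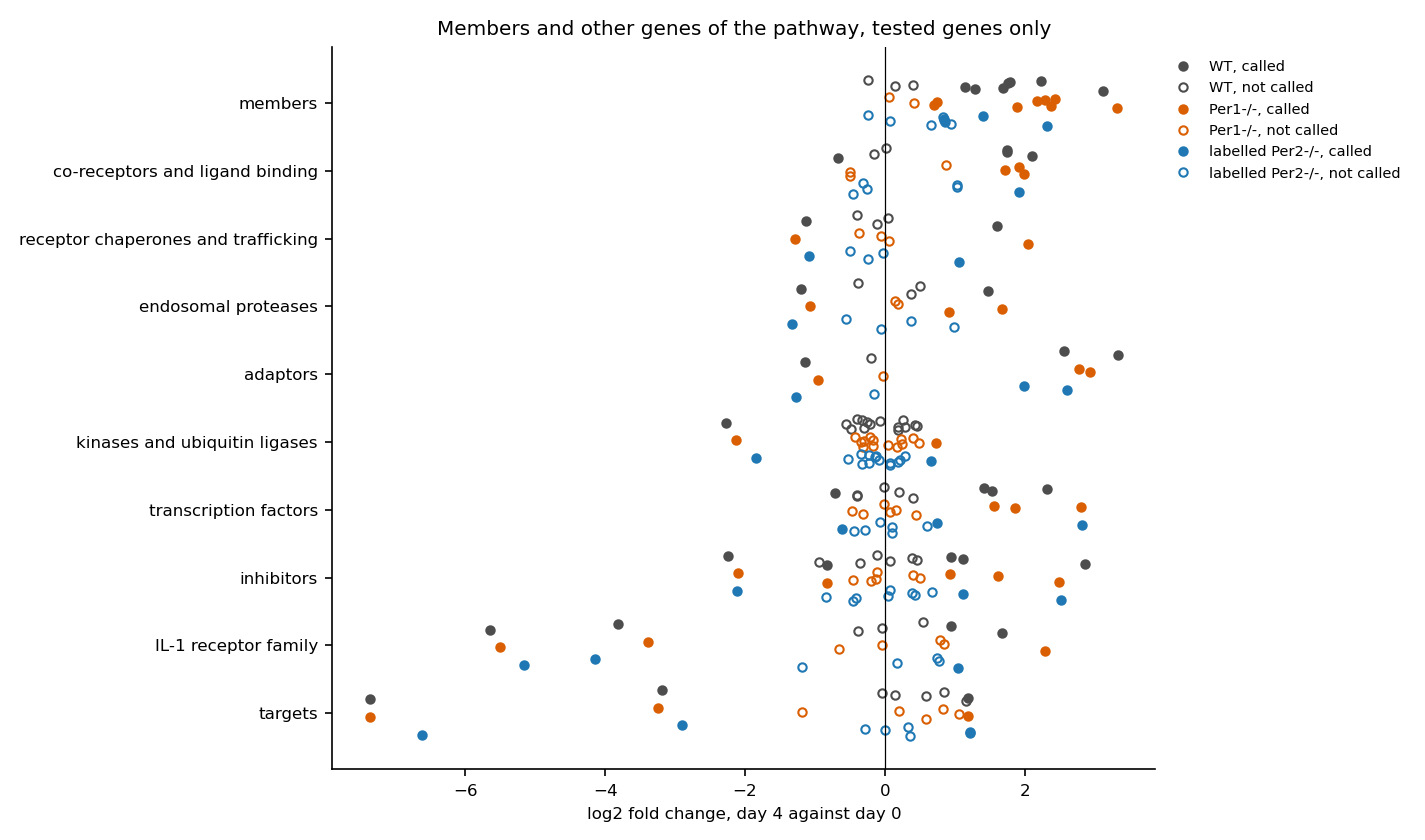
Log2 fold change from day 0 to day 4 (x axis) of the 10 genes and of the tested genes in each pathway list (rows), one point per gene and genotype, with filled points for genes called by limma. The 10 genes lie mostly to the right of 0 (medians of 1.49, 2.03, and 0.85), and the genes farthest to the left are Ptgs2 and Il1rl1.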

How the data were processed

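Bulk RNA-seq values of 27 libraries were used as the authors deposited them, in FPKM for 54532 genes. According to the methods of the study, the authors removed low-quality reads, aligned paired-end reads from nondirectional poly-A libraries to GRCm38 with HISAT2 2.0.5, counted fragments on genes with featureCounts 1.5.0-p3, and computed FPKM from the counts and gene lengths. Replicates were not pooled. The labels gave each library's genotype, day, and replicate. FPKM multiplied by gene length came out as whole multiples of its smallest value for 100% of values in every library (tolerance 0.01), which gave the fragments behind each value and the depth of 15815013 to 24264097 fragments. Replicates of a group differed beyond sampling noise in all 27 pairs (chi-square divided by its degrees of freedom, 9.01 to 67.4). Columns of gene annotation were used for lengths and positions.

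Genes averaging 0.5 FPKM or more, 14932 in all, were tested on log2(FPKM + 0.1) with limma 3.58.1 in R 4.3.3 and a trend of the variance with the mean, with 9 groups of genotype and day sharing one estimate of the spread and no block. Comparisons of genotypes within a day, of days within a genotype, and 4 interactions were made. The Benjamini-Hochberg adjustment covered all tested genes of a comparison, and calls needed an adjusted p no higher than 0.05 and a log2 fold change no smaller than 0.58 in either direction. The study tested its counts with DESeq2, which was not run here. The main fit used the deposited unit, FPKM, and among the fits only that with voom weights used the recovered fragments. The script was tested on simulated data. Promoters were searched with Python 3.11.15, and exon overlaps were taken from GENCODE.

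The members and lists were chosen with earlier results of these data known. All 10 members were named. From each pathway list, at most 3 genes with the largest change among those called in a comparison were given with values, for each member the 3 genes with the highest r, and Per1 and Per2. Same-numbered libraries of a genotype deviated from their group means together, with every r over 0.1, in 3 of 9 comparisons of days (Per1-/- days 0 and 2, 0.150 to 0.294, Per1-/- days 2 and 4, 0.140 to 0.284, and WT days 2 and 4, 0.127 to 0.196), and the numbers were taken to pair these. The other 6 comparisons had r of -0.0172 to 0.282. Alternatives were other pseudocounts, filters, scalings, voom weights on fragments, fits of single comparisons, a replicate block, a covariate, and fits without single libraries or cultures. Intervals for single counts were not computed, since replicates give the error.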

Additional observations from a re-analysis of the deposited data

How the results depend on the processing

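Counts of called genes among the 10 and among the pathway genes, and of the 10 with separate Per1-/- libraries, were recomputed under the alternatives. Of 316 such counts, 274 stayed within 1.5 times the reported one. These include many counts of 0 that stayed at 0, mostly in the comparisons of genotypes and the interactions. Those that did not follow, as genes called of 10. For Per1-/- against the libraries labelled Per2-/- on day 4 (1 reported), 0 were called with a pseudocount of 0.01, with a filter at a mean of 1 FPKM (which removes Tlr1), with no filter, with FPKM rescaled to a common sum, with the macrophage marker mean as a covariate, and without Per1-/- culture 1 or 3. With a pseudocount of 1 and in fits of only the groups compared 4 were called, and with voom weights 5 (of 266 genes in all, against 83 reported). Against WT on day 4, a pseudocount of 1 called 1, which was Tlr1. From day 0 to day 2 in WT (3 reported), 5 were called with FPKM rescaled without Gm23935. In Per1-/- cells (4 reported), 2 were called with only the groups compared or without culture 1, 1 with the covariate, and 8 rescaled without Gm23935. In those labelled Per2-/- (2 reported), 1 was called with a pseudocount of 1, with only the groups compared, and with either rescaling. From day 0 to day 4 the covariate left 3 in Per1-/- cells (8 reported), and in those labelled Per2-/- (5 reported) a pseudocount of 1 left 2 and a filter at 1 FPKM left 3. From day 2 to day 4 in WT (1 reported), 0 were called with no filter, rescaled to a common sum, or with the covariate, 2 without Per1-/- culture 1, and 3 with only the groups compared. In Per1-/- cells (2 reported), 1 was called with a pseudocount of 0.01, either filter alternative, or the covariate, and 0 without culture 1 or 3. In those labelled Per2-/- (2 reported), 1 was called rescaled to a common sum or with only the groups compared, and 0 with the covariate. The Per1-/- libraries lay above the other 6 for 3 genes on day 2 and 2 on day 4 when rescaled to a common sum (5 and 7 reported). The fits without culture 1 or 3 and without Gm23935, and the rescaling of those last counts, were chosen after seeing the data.

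Leaving out each library in turn, the counts to day 2 were 3 to 4 in WT, 2 to 6 in Per1-/- cells, and 1 to 3 in those labelled Per2-/-. To day 4 they were 5 to 7, 6 to 8, and 4 to 5, and from day 2 to day 4 they were 0 to 2 in each. Per1-/- against libraries labelled Per2-/- on day 4 gave 0 to 1, and the other comparisons of genotypes and the interactions gave 0. Calls were gained without 1 library for Per1-/- cells to day 2 (Tlr7 without Per1-/- replicate 3 or replicate 2 labelled Per2-/- of day 0, adjusted p = 0.00958 and 0.0456, Tlr8 without Per1-/- replicate 3 of day 0, 0.0361, and Tlr3 without Per1-/- replicate 1 of day 0, 0.0303), for WT (Tlr4 to day 2 without replicate 3 of day 0, 0.0280, Tlr6 to day 2 without replicate 3 of day 2, 0.0245, and Tlr4 from day 2 to day 4 without Per1-/- replicate 2 of day 0 or 1 of day 2, 0.0347 and 0.0493), and for the fall of Myd88 to day 2 in libraries labelled Per2-/- (without replicate 1 or 3 of day 0 or 1 of day 2, 0.00778 to 0.0156). With the covariate, changes in log2 to day 4 reversed for Tlr7 (-0.69 in WT, -0.35 in Per1-/-, and -0.61 in those labelled Per2-/-), Tlr8 (-0.66 and -0.35 in WT and Per1-/-), and Tlr13 (-0.71, -0.57, and -0.80), as did those of Tlr13 to day 2 (-0.60 in WT and -0.43 in Per1-/-). Called as falls were Tlr7 and Tlr13 to day 4 in WT (adjusted p = 0.0482 and 0.00147) and in those labelled Per2-/- (0.0378 and 8.3e-05), and Tlr13 to day 2 in WT (0.000849), so an equal count can hold falls. The cause was not tested.

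Over all tested genes, same-numbered libraries of different genotypes had r of the deviations from group means of -0.256 to 0.192. Of 27 such pairs, 3 were over 0.1. These r do not describe single genes. Replicate 2 was the lowest Tlr2 library in every group but WT of day 2. For Per1-/- against the libraries labelled Per2-/- on day 4, a replicate block lowered the SE of Tlr2 from 0.25 to 0.16. That of Tlr7 went from 0.57 to 0.42. With a replicate block, 3 genes were called for Per1-/- against libraries labelled Per2-/- on day 4 (Tlr1, Tlr2, and Tlr7), 2 from day 2 to day 4 in WT (Tlr2 and Tlr4), and 1 for the difference of the changes to day 4 between Per1-/- and the libraries labelled Per2-/- (0 reported).

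Rescaling to a common sum moved the median log2 change of all genes from day 0 to day 4 to 0.37 in WT, 0.26 in Per1-/- cells, and 0.25 in those labelled Per2-/-, and the genes called up and down went from 3414 and 3120 to 5546 and 1500 in WT, from 3378 and 3043 to 4745 and 1811 in Per1-/- cells, and from 3218 and 2800 to 4493 and 1740 in those labelled Per2-/-. Depth limits Tlr1 and Tlr9 on day 0, with 2 to 15 fragments per WT library.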
